A study of Mus musculus with 4 samples.

Results

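The genes for the protein components of the mitochondrial ribosome were described in Langerhans cells, the dendritic-type immune cells that reside in mouse epidermis. Genes were chosen by name alone, as every symbol that starts with Mrpl or Mrps followed by a digit. This gave 78 of the 24441 symbols in the tables, 49 Mrpl genes for the large subunit and 29 Mrps genes for the small subunit. Expression was given as FPKM, sequenced fragments divided by transcript length and library size, in 4 libraries from mice 4 weeks old. There were 2 libraries of wild-type mice (WT) and 2 of CD11cCreTfamfl/fl mice (Tfam cKO). In the latter the floxed alleles of Tfam are targets of a Cre recombinase under the CD11c promoter, which is active in dendritic cells and Langerhans cells and also in some macrophages. Whether the WT mice carried Cre, and how many mice went into a library, is not stated in the labels. The p-values therefore measure only the spread between these libraries.

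The mitochondrial ribosome makes the few proteins that mitochondrial DNA encodes, all of them subunits of the respiratory chain and the ATP synthase. Its rRNAs are transcribed from mitochondrial DNA, in a reaction that needs TFAM, whereas all of its proteins are encoded in the nucleus and imported. Some of these proteins belong to families that also occur in bacterial ribosomes, and others are found only in mitochondria. The mitochondrial rRNAs were not analysed here.

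The library labels were checked with Tfam, which was listed at 3.17 (WT 1), 1.61 (WT 2), 1.65 (Tfam cKO 1) and 1.53 FPKM (Tfam cKO 2). WT 2 was thus near both Tfam cKO libraries (log2 fold change −0.35, limma adjusted p = 0.90), and every direction below rests on the labels. All 10 Langerhans cell markers had a mean of at least 1 FPKM, among them Cd207, which encodes langerin, at 1374 to 2098 FPKM. The 12 keratinocyte markers were also present and summed to 3.36% (WT 1), 2.50% (WT 2), 3.01% (Tfam cKO 1) and 2.96% (Tfam cKO 2) of the total FPKM. Of 10 markers of dendritic epidermal T cells, the gamma-delta T cells of mouse epidermis, 6 were in the tables and summed to 324 (WT 1), 388 (WT 2), 232 (Tfam cKO 1) and 346 FPKM (Tfam cKO 2). Their part in the results was not tested. Markers of fibroblasts summed to at most 1.07 FPKM and those of mast cells to at most 1.33 FPKM, whereas the 8 macrophage markers summed to 26.7 and 35.7 FPKM in the WT libraries against 128.5 and 74.9 in those of Tfam cKO. Of these macrophage markers 3 averaged 1 FPKM or more, and Cd163 and Fcgr1 were at 0 in every library. The part of macrophages in the results was not tested. Depth relative to WT 1 was 1.37 (WT 2), 0.884 (Tfam cKO 1) and 1.56 (Tfam cKO 2). In such bulk libraries fewer cells of a type and less RNA per cell cannot be told apart. Y-linked transcripts were at 0 in library 1 and present in library 2 of each group, so differences within a library number are also between libraries alike in Y-linked transcripts.

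All 78 genes were present in every library, and all had a mean above the 1 FPKM required for testing. The lowest was Mrpl35, at a mean of 2.26 FPKM. The median level was 12.02 FPKM over the 78 genes, 12.2 for the large subunit and 11.7 for the small subunit, against 8.41 over the 10910 tested genes. Although the products are parts of one particle, mRNA levels spanned a 67.1-fold range in the large subunit and a 22.6-fold range in the small subunit. Most lay close together: 31 of 49 Mrpl genes and 23 of 29 Mrps genes had a mean between 5 and 25 FPKM. The effective number of fragments behind a value, taken from the width of the Cufflinks interval, ranged from 16 to 715 with a median of 159.5.

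Among the large subunit genes, Mrpl52 stood highest, at 146.5 (WT 1), 130.3 (WT 2), 139.2 (Tfam cKO 1) and 190.4 FPKM (Tfam cKO 2). Mrpl33 followed, at 118.8 and 66.4 FPKM in the WT libraries against 62.7 and 95.5 in those of Tfam cKO. Both groups overlapped for Mrpl33, whose high libraries were WT 1 and Tfam cKO 2. These 2 genes held 27.1% of the summed FPKM of the large subunit. Their annotated coding transcripts are short, 418 bases for Mrpl52 and 478 for Mrpl33, against a median of 1302 over the 78 genes, and the FPKM of short transcripts depends on how the length is corrected. Mrpl54 was listed between 39.4 and 42.1 FPKM in all 4 libraries and Mrpl24, a protein at the exit of the nascent chain tunnel, between 34.5 and 49.1 FPKM. At the low end, Mrpl1, which builds the stalk on the tRNA exit side, was listed at 2.40 and 2.02 FPKM in the WT libraries against 2.93 and 1.88 in those of Tfam cKO.

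In the small subunit Mrps21 was highest, at 68.3 and 70.7 FPKM in the WT libraries against 46.6 and 86.0 in those of Tfam cKO. The WT libraries lay between the Tfam cKO libraries. Its coding transcript has 488 bases. Mrps16 was listed at 37.8 and 36.9 FPKM in the WT libraries against 38.4 and 42.3 in those of Tfam cKO. Mrps28 was listed at 28.6 and 15.1 FPKM in the WT libraries against 31.1 and 23.4 in those of Tfam cKO, with WT 2 alone at the bottom. Mrps2 and Mrps25 were the lowest, with means of 3.01 and 3.13 FPKM.

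**Figure D1:**
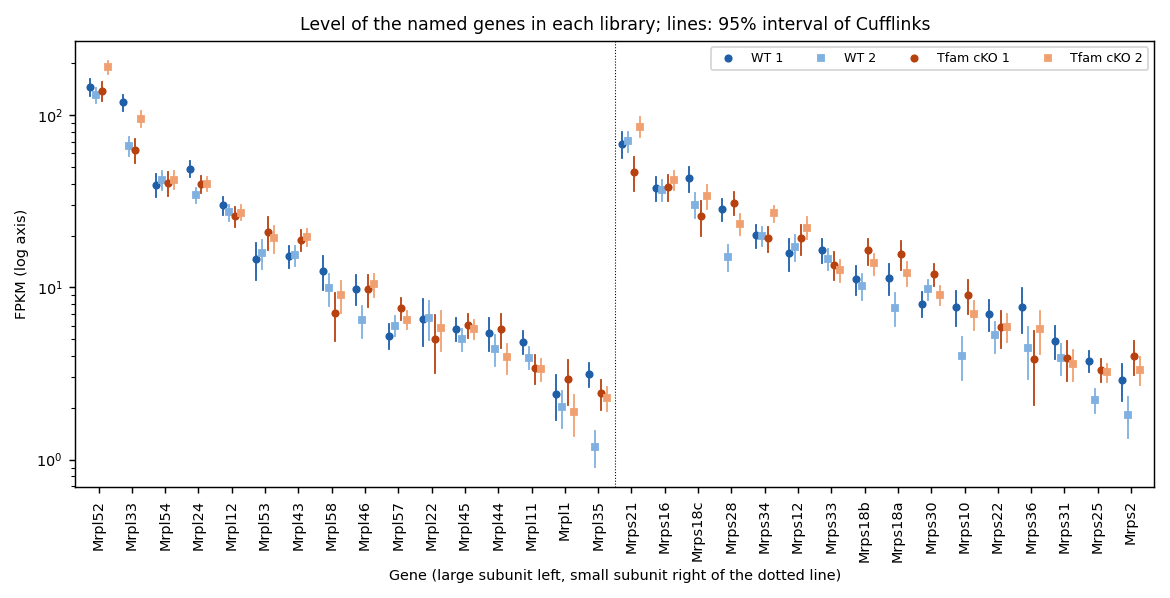
FPKM (log axis) of 32 named mitochondrial ribosomal protein genes in each library, large subunit left and small subunit right, with the 95% interval of Cufflinks as a line. The levels fall from Mrpl52 at 130.3 to 190.4 FPKM to Mrpl35 at 1.19 to 3.14 FPKM, and WT 2 (light blue squares) is lowest for many genes.

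Tfam cKO was compared with WT to ask whether the mRNAs of the ribosomal proteins differ where Tfam is targeted. No gene of either subunit passed the test (limma adjusted p at least 0.719), where 2 of 10910 tested genes were called higher (0.0183%) and 0 lower (0%). At an unadjusted p below 0.05 there were 4 of 78, Mrps18a, Mrps18b, Mrps2 and Mrpl53, all higher in Tfam cKO. That is 5.13% of the genes, where all tested genes gave 6.21%. Log2 fold changes, computed on FPKM + 1, ran from −0.43 for Mrpl58 to 0.52 for Mrps18a. Their median was 0.12, where the median of all tested genes was 0.07. Positive fold changes were found for 51 of the 78 genes, or 65.4%, beside 65.2% of all tested genes. Rescaling all libraries to equal totals moved the median of all genes by −0.11, and the 78 genes then stood 0.04 above it, as they did with the deposited values. Under this scaling 39 of the 78 were positive, beside 4714 of all 10910 tested genes.

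Both Tfam cKO libraries lay above both WT libraries for 14 of the 78 genes, where the share of all tested genes was 25.4%. Both lay below for 8 genes, with a share of 9.75% over all tested genes. This split turned with the scaling, to 8 above and 13 below after rescaling, where all tested genes gave 14.3% and 19.8%. Higher under both scalings were Mrpl9, Mrpl43, Mrpl53, Mrps2, Mrps7, Mrps17, Mrps18a and Mrps18b, 8 genes in all. Lower under both were Mrpl11, Mrpl12, Mrpl18, Mrpl22, Mrpl36, Mrpl58, Mrps31 and Mrps33, also 8. No share of all tested genes was taken for both scalings together, so these counts only list genes. For 16 genes the group difference was larger than the gap between the libraries of either group, or 20.5%, beside 23.4% of all tested genes.

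**Figure D2:**
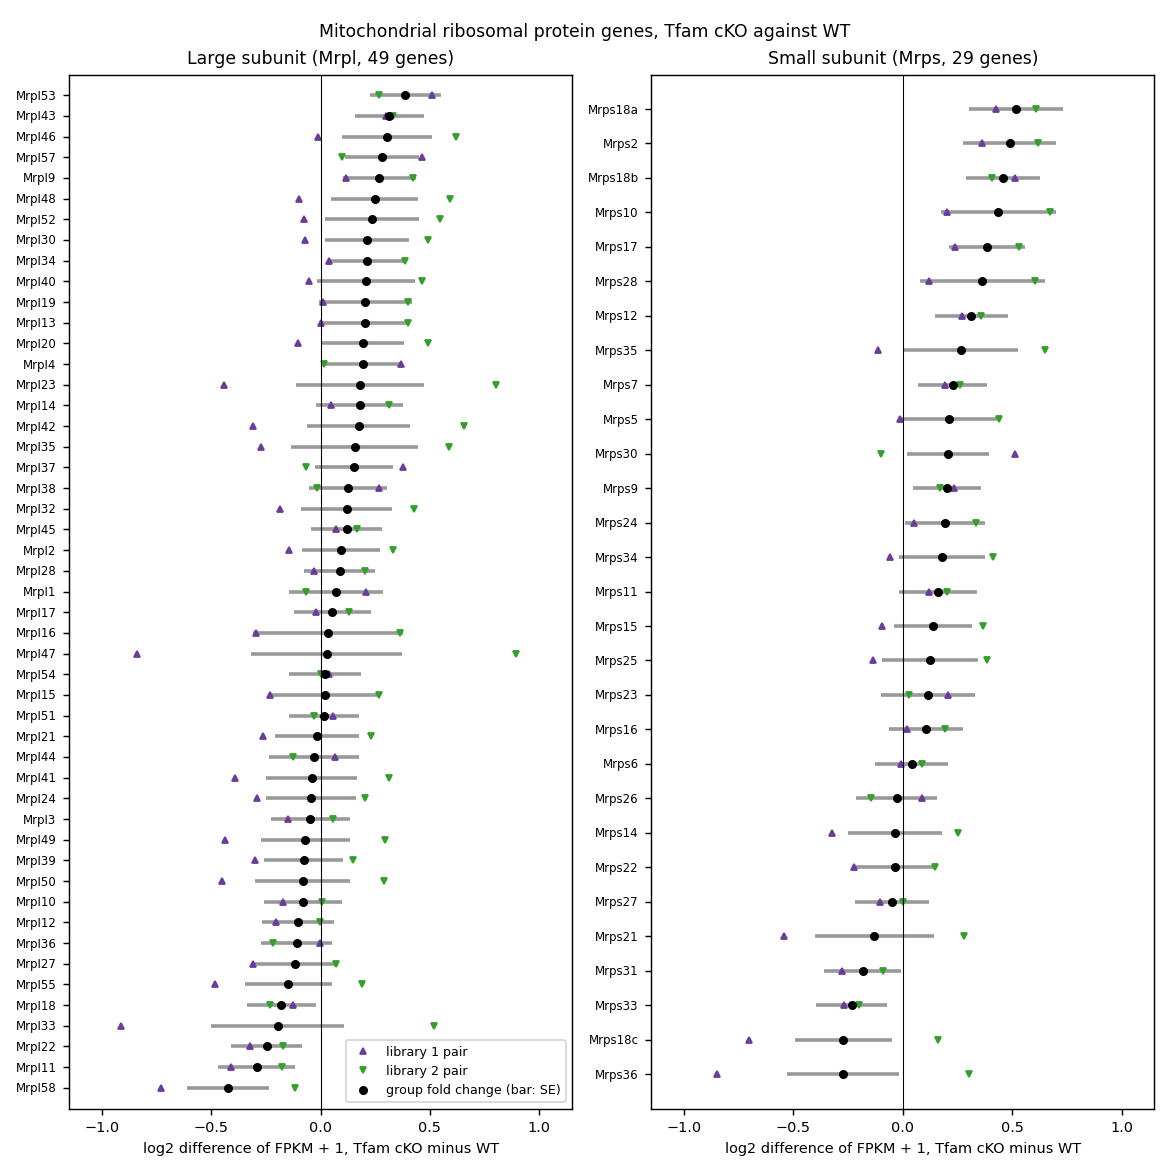
Log2 difference of FPKM + 1, Tfam cKO minus WT, for each of the 49 Mrpl genes (left) and 29 Mrps genes (right): the group fold change with its SE (black, grey bar) and the differences within the libraries numbered 1 and 2 (triangles). The black points run from −0.43 for Mrpl58 to 0.52 for Mrps18a, and the green triangles of the libraries numbered 2 lie mostly to the right of the violet ones.

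For 53 of these 78 genes (67.9%, beside 63.7% of all tested genes) the WT libraries differed from each other by more than the groups did. WT 1 was above WT 2 for 64 of the 78, 82.1% of them, beside 62.6% of all tested genes. WT 2 was the lowest of the 4 libraries for 48 genes (46% of all tested genes) and WT 1 the highest for 32 (27.1% of all tested genes). The median gap between the WT libraries was 0.30 on the log2 scale and that between the Tfam cKO libraries 0.16, whereas the median size of the group fold change was 0.18. In WT, the Cufflinks intervals of the libraries did not overlap for 24 of the 78 genes, or 30.8%, beside 38.6% of all tested genes with an interval. In Tfam cKO this held for 9 genes, or 11.5%, beside 25.9%. Keratinocyte markers summed to 12420 (WT 1), 8453 (WT 2), 11900 (Tfam cKO 1) and 11130 FPKM (Tfam cKO 2), and so were also lowest in WT 2. Their part in the result was not tested.

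The direction therefore depended on the libraries set against each other. Within the libraries numbered 1 the median difference of Tfam cKO from WT was −0.06, with 31 of 78 genes positive (39.7%, beside 52.7% of all tested genes). Within those numbered 2 it was 0.27, with 63 positive (80.8%, beside 69.05% of all tested genes). The signs were opposite for 46 of the 78 genes, or 58.97%, beside 45.85% of all tested genes. Over all tested genes the medians were 0.02 and 0.13. Without WT 2 the median of the 78 genes was −0.06, and without WT 1 it was 0.22. Among the abundant genes, Mrpl33 had differences of −0.91 and 0.52 for library numbers 1 and 2. For Mrpl35 the values in WT 1 and WT 2, 3.14 and 1.19 FPKM, enclosed both Tfam cKO values of 2.43 and 2.28. Mrpl16 was listed at 13.25 (WT 1), 5.44 (WT 2), 10.6 (Tfam cKO 1) and 7.28 FPKM (Tfam cKO 2).

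**Figure D3:**
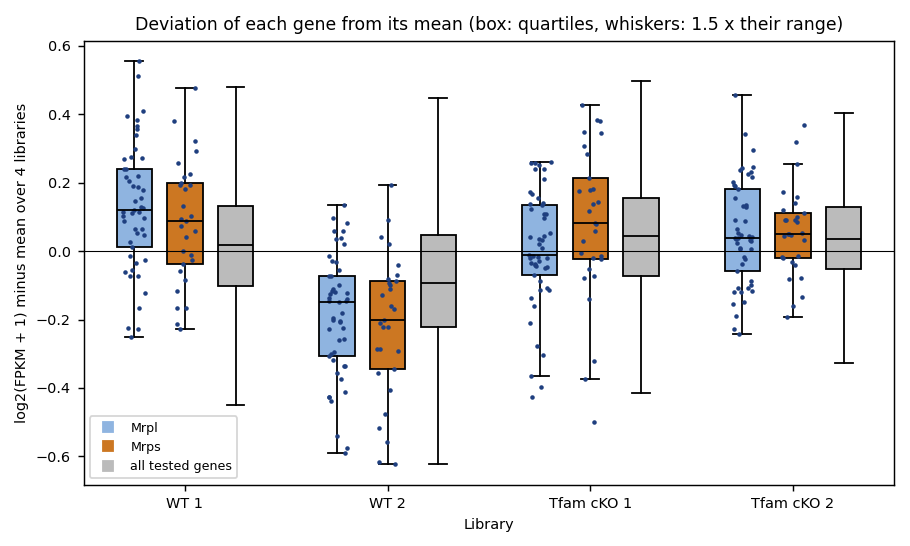
Deviation of log2(FPKM + 1) from the mean of the gene over the 4 libraries, for Mrpl genes, Mrps genes and all tested genes in each library (line: median, box: quartiles, dots: single genes). The medians of Mrpl and Mrps genes are 0.12 and 0.09 in WT 1 and −0.15 and −0.20 in WT 2, while those of all tested genes are 0.02 and −0.09.

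Large and small subunit genes were then set against each other. The summed FPKM of Mrpl genes over that of Mrps genes was 2.06 (WT 1), 1.93 (WT 2), 1.94 (Tfam cKO 1) and 2.001 (Tfam cKO 2). The groups overlapped, with means of 1.997 ± 0.0925 in WT and 1.97 ± 0.0452 in Tfam cKO (SD, n = 2 each; exact two-sided permutation p = 1, where 2 against 2 libraries cannot go below 0.333). Without Mrpl52 and Mrpl33 the ratio was 1.485 (WT 1), 1.43 (WT 2), 1.476 (Tfam cKO 1) and 1.396 (Tfam cKO 2). The 78 genes together held a share of all FPKM of 0.380% (WT 1), 0.339% (WT 2), 0.325% (Tfam cKO 1) and 0.378% (Tfam cKO 2) (exact two-sided permutation p = 0.667). As a list, Mrps genes had the higher median fold change, 0.16 against 0.07 for Mrpl genes. The difference of −0.09 (Mrpl minus Mrps) ranged from −0.17 to −0.06 over the alternatives, the lowest of them without Tfam cKO 2. Separate ranges were found for 8 Mrps genes higher and 2 lower of 29, and for 6 Mrpl genes higher and 6 lower of 49. These are 27.6% and 6.897% of the Mrps genes and 12.2% in each direction of the Mrpl genes, beside 25.4% higher and 9.75% lower of all tested genes.

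The Mrps symbol does not always stand for the small subunit. In structures of the mammalian particle the products of Mrps18a and Mrps30 sit in the large subunit, and the product of Mrps36 is now assigned to the oxoglutarate dehydrogenase complex. Mrps30 was listed at 8.06 and 9.75 FPKM in the WT libraries against 11.9 and 9.05 in those of Tfam cKO, and the groups overlapped. Mrps36 was listed at 7.70 and 4.44 FPKM in the WT libraries against 3.82 and 5.70 in those of Tfam cKO, on 19 to 51 fragments, and 3 annotated pseudogenes carry its name. With Mrps18a and Mrps30 counted as large and Mrps36 left out, the difference of medians was −0.06 and the ratio was 2.24 and 2.09 in WT, with 2.15 and 2.17 for Tfam cKO.

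The 3 paralogs of the bacterial S18 protein had fold changes of unlike sign. Each ribosome uses its members at different places: Mrps18c is the counterpart of bacterial S18, Mrps18b a further protein of the small subunit and Mrps18a one of the large subunit. Mrps18a was listed at 11.3 (WT 1), 7.62 (WT 2), 15.6 (Tfam cKO 1) and 12.15 FPKM (Tfam cKO 2). Neither WT library reached the Tfam cKO range, by a small margin between WT 1 and Tfam cKO 2 (log2 fold change 0.52 with an SE of 0.22, limma adjusted p = 0.796). Mrps18b was listed at 11.2 and 10.2 FPKM in the WT libraries against 16.4 and 13.8 in those of Tfam cKO (log2 fold change 0.46 with an SE of 0.17, limma adjusted p = 0.719). Between the first libraries of each group the gap was 0.51 on the log2 scale, and between the second ones 0.41. Mrps18c, the most abundant of the 3, was listed at 43.0 and 30.3 FPKM in the WT libraries against 26.0 and 33.9 in those of Tfam cKO. Its groups overlapped, and the differences within library numbers were −0.70 and 0.16 (log2 fold change −0.27 with an SE of 0.22, limma adjusted p = 0.915).

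The promoters of the S18 paralogs are shown because the 3 genes differ in level and in order of the libraries. That of Mrps11 is added because part of it is shared with that of Mrpl46. Each runs from 250 bases before to 50 after the start of transcription in RefSeq on GRCm38.p6, 5′ to 3′ on the strand of the gene, and capitals mark matches to 3 short motifs. These are GCATGCGC for NRF1, a factor of nuclear genes for mitochondrial proteins, CCGGAAG for ETS factors such as the NRF2 alpha subunit GABPA, and AAGATGGC for YY1. Both strands were searched, and an ETS match and a YY1 match can share the letters AAG. The windows are chr17:46110754-46111053 (plus strand) for Mrps18a, chr17:35916391-35916690 (minus strand) for Mrps18b, chr5:100798509-100798808 (plus strand) for Mrps18c and chr7:78782881-78783180 (plus strand) for Mrps11.
Mrps18a: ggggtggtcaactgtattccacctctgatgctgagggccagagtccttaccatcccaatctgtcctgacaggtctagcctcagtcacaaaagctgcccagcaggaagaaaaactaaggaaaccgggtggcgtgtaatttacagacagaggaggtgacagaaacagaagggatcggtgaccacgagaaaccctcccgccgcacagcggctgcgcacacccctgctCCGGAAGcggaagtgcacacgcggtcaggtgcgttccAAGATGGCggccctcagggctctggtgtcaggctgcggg
Mrps18b: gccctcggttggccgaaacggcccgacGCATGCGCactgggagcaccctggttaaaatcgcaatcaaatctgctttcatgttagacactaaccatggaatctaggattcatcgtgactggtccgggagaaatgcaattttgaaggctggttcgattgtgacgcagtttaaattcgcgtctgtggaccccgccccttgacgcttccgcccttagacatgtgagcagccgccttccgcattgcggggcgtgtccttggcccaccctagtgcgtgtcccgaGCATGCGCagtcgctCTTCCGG
Mrps18c: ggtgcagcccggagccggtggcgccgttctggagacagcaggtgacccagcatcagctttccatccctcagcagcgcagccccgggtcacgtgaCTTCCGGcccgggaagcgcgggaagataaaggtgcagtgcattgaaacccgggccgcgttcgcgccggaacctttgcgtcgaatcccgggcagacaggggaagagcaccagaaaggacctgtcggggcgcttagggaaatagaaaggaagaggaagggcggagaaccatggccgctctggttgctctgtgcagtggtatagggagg
Mrps11: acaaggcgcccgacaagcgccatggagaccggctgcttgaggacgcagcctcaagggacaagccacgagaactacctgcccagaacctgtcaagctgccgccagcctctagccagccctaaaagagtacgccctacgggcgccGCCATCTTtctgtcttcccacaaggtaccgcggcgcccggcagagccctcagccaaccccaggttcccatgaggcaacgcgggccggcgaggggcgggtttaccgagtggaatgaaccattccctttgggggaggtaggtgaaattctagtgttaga

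Mrps18a held an ETS match 26 bases before its start and a YY1 match from base 12 after it. Mrps18b held 2 NRF1 matches and 1 ETS match, and Mrps18c had a single ETS match. RefSeq promoters were found for 69 of the 78 genes, 75 windows in all. An ETS match was present in 34.7% of these windows, beside 18.3% of the promoters of tested genes and 8.86% of all 32851 promoters of this length. A YY1 match was present in 16% (12 windows), beside 4.67% and 2.75%. An NRF1 match was present in 10.7%, beside 5.26% and 2.71%. By subunit, NRF1 matches were in 7 of 48 Mrpl windows (14.6%) and 1 of 27 Mrps windows (3.7%), the latter that of Mrps18b. ETS matches were in 31.2% of the Mrpl and 40.7% of the Mrps windows, and YY1 matches in 12.5% and 22.2%. At least 1 of the 3 was found in 24 of 48 Mrpl windows and 14 of 27 Mrps windows, shares of 50% (24 windows) and 51.9%. The share was 25.7% for the promoters of tested genes and 13.3% for all promoters. A match of letters is no evidence that a factor binds there.

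Mrpl46, of the central protuberance of the large subunit, and Mrps11, of the small subunit platform, are transcribed away from each other, and their 300-base promoter windows share 141 bases. The YY1 match marked for Mrps11 lies outside the shared bases, and the Mrpl46 window held no match to any of the motifs. Mrpl46 was listed at 9.86 and 6.44 FPKM in the WT libraries against 9.77 and 10.4 in those of Tfam cKO. Mrps11 was listed at 6.70 and 5.35 FPKM in the WT libraries against 7.38 and 6.29 in those of Tfam cKO. WT 2 was the lowest library for both, and the log2 fold changes were 0.30 and 0.16 (limma adjusted p = 0.896 and 0.947). Neighbours with nearby starts and opposite directions were also found for other genes. In the GENCODE gene bounds 18 of the 78 genes, 23.1%, had a protein-coding gene starting in the opposite direction within 1000 bases, where 10.8% of all tested protein-coding genes did. The pair Mrpl46 and Mrps11 is not among these 18, since those bounds overlap. Partners included Sars2, for the mitochondrial seryl-tRNA synthetase, beside Mrps12, and Psma2, for a proteasome subunit, beside Mrpl32. The 78 genes also encode short proteins, with a median of 194 codons, and have few exons, with a median of 5. All tested genes had medians of 454 codons and 9 exons.

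By role, the 3 genes listed here for the stalk that recruits translation factors, Mrpl10, Mrpl11 and Mrpl12, had negative fold changes. Of all tested genes 65.2% had positive ones. The list is short and may leave out other proteins of the stalk. Mrpl53 and Mrpl54, with log2 fold changes of 0.39 and 0.02, were not in it. The negative signs therefore describe these 3 genes and not the stalk as a whole. Mrpl12, which carries the flexible arm of the stalk and is also known to bind the mitochondrial RNA polymerase, was listed at 29.9 and 27.3 FPKM in the WT libraries against 25.9 and 27.2 in those of Tfam cKO. The gap between the groups, from 27.29 to 27.24, was minute (log2 fold change −0.10 with an SE of 0.16, limma adjusted p = 0.960). Mrpl11, at the base of the stalk, was listed at 4.84 and 3.92 FPKM in the WT libraries against 3.40 and 3.35 in those of Tfam cKO. The groups did not overlap (log2 fold change −0.29 with an SE of 0.18, limma adjusted p = 0.877). For Mrpl10, which holds Mrpl12 in place, the groups overlapped, at 12.2 and 9.50 FPKM in the WT libraries against 10.7 and 9.54 in those of Tfam cKO. The list median of the 3 was −0.10, and −0.23 after rescaling.

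In the large subunit, 18 of 29 genes from families with bacterial counterparts had positive fold changes, with a median of 0.05, and 12 of 18 genes specific to mitochondria, with a median of 0.12. Mrpl57 and Mrpl58, with log2 fold changes of 0.28 and −0.43, were in neither list. Of 5 genes listed here for the central protuberance, which contacts the small subunit, 4 were positive, with a median of 0.21. The 5 were Mrpl18, Mrpl38, Mrpl40, Mrpl46 and Mrpl48, and the list may leave out other proteins of this part. Mrpl27, Mrpl55 and Mrpl58, with log2 fold changes of −0.12, −0.15 and −0.43, were not in it. The count of positive genes therefore describes these 5 genes and not the central protuberance as a whole. Of all tested genes 65.2% were positive.

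Around the exit of the tunnel, through which nascent chains reach the inner membrane, 4 of 8 genes had positive and 4 negative fold changes, with a median of 0.00 (−0.0017). Mrpl45, which anchors the ribosome at the membrane, was listed at 5.75 and 4.995 FPKM in the WT libraries against 6.08 and 5.73 in those of Tfam cKO. Mrpl22, which lines the tunnel, was listed at 6.55 and 6.66 FPKM in the WT libraries against 5.04 and 5.80 in those of Tfam cKO, without overlap. Its values rest on 29 to 60 fragments (log2 fold change −0.25 with an SE of 0.16, limma adjusted p = 0.894). Mrpl44, which has an RNase III fold, was listed at 5.45 and 4.38 FPKM in the WT libraries against 5.75 and 3.92 in those of Tfam cKO, so that the WT libraries lay between those of Tfam cKO.

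Mrpl58 had the largest negative fold change of the 78. It encodes ICT1, a peptidyl-tRNA hydrolase built into the large subunit that can release stalled chains. It was listed at 12.5 (WT 1), 9.91 (WT 2), 7.12 (Tfam cKO 1) and 9.04 FPKM (Tfam cKO 2), on 42 to 90 fragments. Both Tfam cKO libraries were below both WT libraries (log2 fold change −0.43 with an SE of 0.19, limma adjusted p = 0.811). Under the alternatives tried the fold change was between −0.58 and −0.27. As the groups did not overlap, leaving out a library could not turn its sign, so the constant sign adds no support. At the other end of the large subunit, Mrpl53 was listed at 14.6 and 15.8 FPKM in the WT libraries against 21.1 and 19.3 in those of Tfam cKO (log2 fold change 0.39 with an SE of 0.16, limma adjusted p = 0.797). Its gene model overlaps that of Ccdc142 in the tables. Mrpl43 was even closer within groups, at 15.2 and 15.4 FPKM in the WT libraries against 18.9 and 19.6 in those of Tfam cKO (log2 fold change 0.31). The Mrpl43 model overlaps that of Twnk, the mitochondrial DNA helicase gene, which had a mean of 3.497 FPKM. Strand was not stated, so reads from overlapping genes cannot be told apart. Mrpl57 was listed at 5.24 and 6.01 FPKM in the WT libraries against 7.61 and 6.495 in those of Tfam cKO, again without overlap.

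In the small subunit, the families with bacterial counterparts and those specific to mitochondria are described separately. Of 16 genes with counterparts, 13 had a positive fold change, where 65.2% of all tested genes did, with a median of 0.20. Of these 16, 6 were separate and higher in Tfam cKO and 0 lower, beside 25.4% and 9.75% of all tested genes. All 16 were positive between the second libraries of each group, where 69.05% of all tested genes were, and 10 between the first, where 52.7% were. Of 9 specific genes, 4 were positive, with a median of −0.03 and with 0 separate and higher and 2 lower, beside the same shares over all tested genes. Mrps18b, which was separate and higher (log2 fold change 0.46), was in neither list, and Mrps18a, Mrps30 and Mrps36 were also left out. No member of either list passed the test, and the 2 lists were not tested against each other. After rescaling the medians were 0.09 and −0.15. Mrps2 was listed at 2.89 and 1.82 FPKM in the WT libraries against 3.99 and 3.32 in those of Tfam cKO (log2 fold change 0.49 with an SE of 0.21, limma adjusted p = 0.804). Mrps12, of the decoding center, was listed at 15.8 and 17.2 FPKM in the WT libraries against 19.3 and 22.3 in those of Tfam cKO (log2 fold change 0.31, SE 0.17). In Mrps10, of the head, WT 1 at 7.74 FPKM lay above Tfam cKO 2 at 6.998, with WT 2 at 4.025 and Tfam cKO 1 at 9.04.

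Among the genes specific to mitochondria, Mrps33 was listed at 16.4 and 14.7 FPKM in the WT libraries against 13.5 and 12.6 in those of Tfam cKO, and Mrps31 at 4.92 and 3.91 (WT) and 3.88 and 3.61 (Tfam cKO). Neither pair of groups overlapped, with log2 fold changes of −0.23 and −0.18. Mrps22 and Mrps34, both mutated in human disorders of mitochondrial translation, had overlapping groups. Mrps22 was listed at 7.025 and 5.26 FPKM in the WT libraries against 5.88 and 5.93 in those of Tfam cKO. Mrps34 was near 20 in 3 libraries, at 20.1 and 20.0 FPKM in WT (19.96 in WT 2) and 19.3 in Tfam cKO 1, and at 26.9 in Tfam cKO 2.

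**Figure D4:**
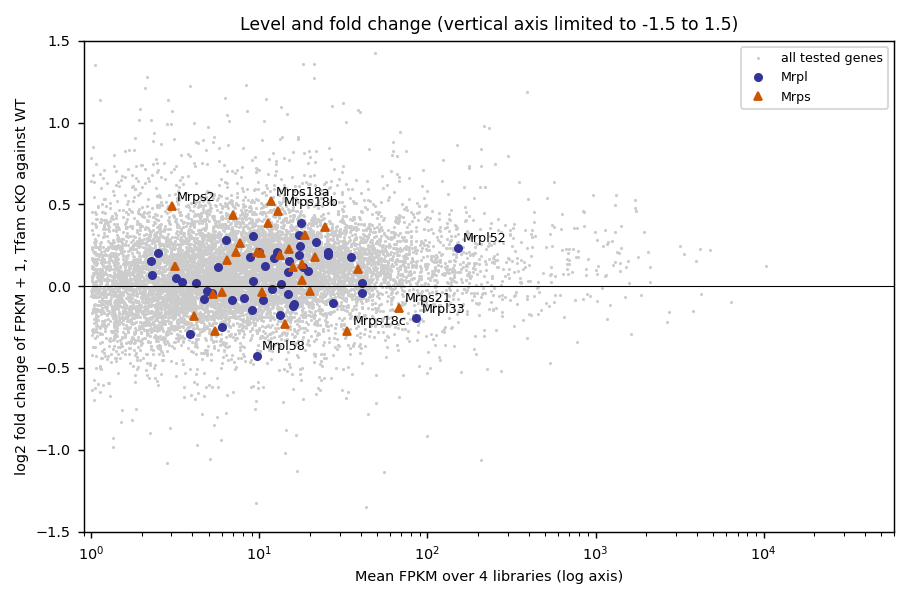
Log2 fold change of FPKM + 1 (vertical axis, Tfam cKO against WT) against the mean FPKM over the 4 libraries (log axis) for all 10910 tested genes (grey) and the 49 Mrpl (circles) and 29 Mrps (triangles) genes; genes beyond the vertical limits of the plot are not drawn. The 78 genes lie inside the grey cloud, between −0.43 and 0.52.

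Proteins of the ribosome whose genes carry other names were 5 in the tables, all with positive fold changes, beside 65.2% of all tested genes. None passed the test. The list median was 0.05, and −0.05 after rescaling. After rescaling 1 was positive, beside 4714 of all 10910 tested genes. Chchd1, a small subunit protein, was listed at 31.7 and 21.7 FPKM in the WT libraries against 34.1 and 33.4 in those of Tfam cKO (log2 fold change 0.35, limma adjusted p = 0.873). Dap3, the GTP-binding protein of the small subunit, was listed at 5.49 and 3.93 FPKM in the WT libraries against 5.06 and 4.57 in those of Tfam cKO. The log2 fold changes of Ptcd3, Aurkaip1 and Gadd45gip1 were 0.05, 0.09 and 0.02. WT 2 was the lowest library for all 5, beside 46% of all tested genes.

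Of the genes for ribosome assembly and rRNA modification, 25 were tested in limma and 0 passed in either direction, 2 had an unadjusted p below 0.05, where 6.21% of all tested genes did, and the median was 0.11. The 2 of highest level were Rbfa, an assembly factor of the small subunit, at 22.3 and 22.5 FPKM in the WT libraries against 25.2 and 24.9 in those of Tfam cKO, and Rcc1l, at 11.2 and 15.7 (WT) and 12.6 and 17.8 (Tfam cKO). Of 13 tested translation factors 0 passed in limma and 1, Tufm, had an unadjusted p below 0.05, beside 6.21% of all tested genes. Their median was 0.09, and 10 fold changes were positive, beside 65.2% of all tested genes. Tufm, the elongation factor that brings aminoacyl-tRNA, was listed at 8.89 and 6.59 FPKM in the WT libraries against 11.2 and 10.4 in those of Tfam cKO, without overlap (log2 fold change 0.44, limma adjusted p = 0.788). Oxa1l, the insertase that takes up nascent chains, was listed between 10.01 and 10.7 FPKM in all 4 libraries. The 79 tested genes for cytosolic ribosomal proteins had a median fold change of 0.16 and a median level of 251.9 FPKM, with WT 2 lowest for 57 of them, beside 46% of all tested genes. For these 79 genes the first library of each group gave a median difference of −0.03 and the second 0.37. Of the 79, 0 passed in either direction and 4 had an unadjusted p below 0.05, beside 6.21% of all tested genes.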

How the data were processed

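Libraries were made from RNA of Langerhans cells sorted out of epidermal suspensions, using Trizol and the NEBNext Ultra RNA kit (per the protocols in the labels). The deposited values are FPKM from Cufflinks with a 95% interval, per the file headers, 1 table per library. CASAVA, Cufflinks and mm10 are named per the submitters' processing notes. Aligner, annotation and strand setting: not given in the sources used here. Positions in the tables overlapped the GRCm38 gene of the same name for 9 of the 78 genes, so no position from the tables is printed. FPKM of a symbol with several loci were summed. The 10910 symbols averaging 1 FPKM or more were tested as log2(FPKM + 1), which understates changes of low genes. The test was limma 3.58.1 (R 4.3.3) with a single term for genotype, a mean trend in the variances and Benjamini-Hochberg adjustment at 0.05 over all tested genes, tested on simulated data. List counts and medians are descriptions without tests. An effective number of fragments was taken from the interval, which spans 2 standard errors on each side. It was whole within 0.02 in all 4 libraries for 74 of 9593 genes, whose ratios gave relative depth. Intervals cover counting error only. Sequences are from RefSeq, and gene models from GENCODE.

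The genes named were the 4 highest and 2 lowest of each subunit, the 4 largest fold changes of each subunit in each direction, and 12 with known roles. Mrpl9, Mrpl10, Mrpl16, Mrps11 and genes listed only by the order of their libraries were chosen after their values were seen. The members and lists were chosen with earlier results of these data known. Figures were drawn with matplotlib 3.10.9.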

Additional observations from a re-analysis of the deposited data

How the results depend on the processing

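No Mrpl or Mrps gene passed under any alternative (lowest limma adjusted p 0.152). Over all tested genes 2 passed, 1 with a filter at 5 FPKM or a pseudocount of 5, 3 without a mean trend, 0 without a filter (944 at an unadjusted p below 0.05, 3 of them among the 78), 5 with robust moderation, and 16 (without either WT library) to 82 (without Tfam cKO 1) with a library left out, where the lone library is taken to vary as the other group does. The labels do not state that library numbers pair the mice, although Y-linked transcripts went with the number in both groups, so the block below also separates libraries by them. Differences between the libraries of a group correlated at 0.26 between the groups over all tested genes and at 0.00 (8.5e-05) over the 78. With the number as a replicate block 184 genes passed, 0 of them among the 78 (lowest adjusted p 0.155), and the median fold change of the 78 was 0.12 as before. Of the 78 genes, those with both Tfam cKO libraries higher numbered 8 after rescaling to equal totals and 19 to 54 without 1 library (54 without WT 1), and those lower 13 and 10 to 34 (34 without WT 2). Separation is easier with 3 libraries, so these counts do not compare. With a library left out the median of the 78 ranged from −0.0606 to 0.217 and that of Mrpl minus Mrps from −0.172 to −0.0619. The group difference of the ratio ranged from −0.0936 to 0.0372 over left-out libraries and that of the share from −0.0344 to 0.0176 percentage points, so both changed sign. Leaving Mrpl52 and Mrpl33 out of the ratio was chosen after seeing the data.

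Signs turned for 18 of 40 named genes, none past the threshold. After rescaling these were Aurkaip1 (−0.0311), Dap3 (−0.0679), Gadd45gip1 (−0.0948), Mrpl1 (−0.025), Mrpl54 (−0.102), Mrps16 (−0.0149) and Ptcd3 (−0.0509), and after quantile normalization Aurkaip1 (−0.0361), Dap3 (−0.0229), Gadd45gip1 (−0.0645) and Mrpl54 (−0.0909). Without a library fold changes ranged from −0.0024 to 0.181 for Aurkaip1, −0.159 to 0.238 for Dap3, −0.102 to 0.0237 for Epcam, −0.268 to 0.305 for Gadd45gip1, −0.155 to 0.294 for Mrpl1, −0.293 to 0.204 for Mrpl24, −0.611 to 0.219 for Mrpl33, −0.305 to 0.618 for Mrpl35, −0.258 to 0.196 for Mrpl44, −0.0247 to 0.0661 for Mrpl54, −0.565 to 0.303 for Mrps21, −0.217 to 0.142 for Mrps22, −0.155 to 0.406 for Mrps25, −0.0776 to 0.803 for Mrps28, −0.0517 to 0.409 for Mrps34, −0.614 to 0.0651 for Mrps36 and −0.0816 to 0.191 for Ptcd3. The cause was not tested. Mrpl23, Mrpl48 and Mrps36 have annotated pseudogenes of their name, and 12 gene models of the 78 overlap another in the tables, so reads could be divided between them. Values of Mrpl47 and Mrps36 rest on as few as 16 and 19 fragments.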
